A study of Mus musculus with 8 samples.

Results

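The genes described here are 9 genes of the acute-phase and iron-binding defence response, in primary mouse chondrocytes transfected with a miR-204 mimic or a control small RNA. They were taken by gene symbol (Saa1, Saa2, Saa3, Lcn2, Hp, Orm1, Steap4, Cp and Slc39a4), and all 9 were found among the 24067 genes of the deposited table. The members were chosen by values of these same libraries: their levels in replicate 2 and in the miR-204 and miR-Ctrl groups were known when the list was drawn up. The levels of the 9 genes, the standing of replicate 2 and their difference between miR-204 and miR-Ctrl are therefore given as a description. Fits over all genes include some of them, but their p-values there are not read as tests.

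Articular chondrocytes are the cells that make and maintain joint cartilage. Those used here were isolated from the thigh-bone and shin-bone joint surfaces of 5-day-old mice of the outbred ICR strain, and grown in 3% oxygen with fetal bovine serum. The labels name no genetic change, and the groups differed in the transfected RNA: 4 libraries received 50 nM of miR-Ctrl and 4 received 50 nM of miR-204, for 24 h, with harvest 24 h later. The labels do not say whether animals were pooled, or whether a replicate number stands for a separate culture or litter.

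The acute-phase response is the change in secreted proteins that follows infection or injury. It is driven mainly by interleukin-1, interleukin-6 and tumour necrosis factor through the transcription factors NF-kB, C/EBP and STAT3. Liver cells are its best-known site, but cells of connective tissue, chondrocytes among them, also make several of its proteins when exposed to inflammatory cytokines. Many of its products bind iron, haem or the siderophores with which bacteria capture iron, and so keep these out of reach of microbes. Serum amyloid A proteins (Saa1, Saa2, Saa3) are small apolipoproteins. Lcn2 encodes lipocalin 2, which binds siderophores, Hp encodes haptoglobin, which binds free haemoglobin, and Orm1 encodes an acid glycoprotein of plasma. Cp encodes ceruloplasmin, a copper-carrying enzyme that oxidises iron, Steap4 a membrane enzyme that reduces iron and copper, and Slc39a4 the zinc importer ZIP4.

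The transfected RNA and the upstream regions of the genes with the widest range of levels are shown here, since the first is the agent of the study and the second are where inducible factors of the acute phase are known to act. Mature miR-204-5p, as listed by RefSeq (GRCm38.p6), has its seed, bases 2 to 8, in capitals.
miR-204-5p: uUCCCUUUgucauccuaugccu
The 250 bases before a start that RefSeq annotates for each gene, read 5′ to 3′ in the direction of transcription, came from the RefSeq promoter table (GRCm38.p6). Capitals mark matches, on either strand, to a C/EBP-type motif (TTGCNNAA), a STAT-type motif (TTCNNNGAA) or the NF-kB consensus. The form of the motifs was chosen after these sequences had been seen.
Saa3, chr7:46715677-46715926, minus strand: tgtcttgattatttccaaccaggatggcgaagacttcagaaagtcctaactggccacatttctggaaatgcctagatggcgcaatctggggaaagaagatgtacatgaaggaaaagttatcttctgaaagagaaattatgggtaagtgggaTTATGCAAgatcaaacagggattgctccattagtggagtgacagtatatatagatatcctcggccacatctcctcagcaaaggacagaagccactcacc
Lcn2, chr2:32387740-32387989, minus strand: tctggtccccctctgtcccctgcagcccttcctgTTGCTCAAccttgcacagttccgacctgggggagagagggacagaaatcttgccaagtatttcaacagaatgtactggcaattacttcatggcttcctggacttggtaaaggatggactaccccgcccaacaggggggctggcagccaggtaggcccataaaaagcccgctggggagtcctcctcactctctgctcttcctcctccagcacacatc
Steap4, chr5:7960222-7960471, plus strand: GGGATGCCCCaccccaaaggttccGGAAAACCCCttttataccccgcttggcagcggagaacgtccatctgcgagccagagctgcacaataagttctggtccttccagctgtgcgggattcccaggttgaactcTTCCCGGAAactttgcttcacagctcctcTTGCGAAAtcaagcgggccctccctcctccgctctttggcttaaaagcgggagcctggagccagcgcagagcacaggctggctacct
Saa1, chr7:46742981-46743230, minus strand: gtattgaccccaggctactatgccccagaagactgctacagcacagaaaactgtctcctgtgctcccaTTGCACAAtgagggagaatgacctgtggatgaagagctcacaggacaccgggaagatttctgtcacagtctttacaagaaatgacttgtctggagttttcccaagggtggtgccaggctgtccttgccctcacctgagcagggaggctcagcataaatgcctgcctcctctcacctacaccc
Saa2, chr7:46751583-46751832, plus strand: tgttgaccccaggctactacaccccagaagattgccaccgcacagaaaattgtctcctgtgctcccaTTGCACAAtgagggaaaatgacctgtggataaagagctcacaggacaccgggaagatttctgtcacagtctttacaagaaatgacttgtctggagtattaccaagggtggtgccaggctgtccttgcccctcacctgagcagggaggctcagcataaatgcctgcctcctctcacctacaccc
Of the 9 genes, 6 had an entry in the promoter table (Cp with 2 starts), and each of the 6 had a C/EBP-type match in a window. The motif was present in 9.56% of all 32851 windows of this length. In Saa3 the match was TTATGCAA (the motif on the opposite strand), 99 to 92 bases before the start, and in Steap4 it was TTGCGAAA, 87 to 80 bases before it. Saa1 and Saa2 shared the same match, TTGCACAA, in upstream regions that were 94.8% identical. Lcn2 had TTGCTCAA at 216 to 209 bases before its start, and Cp had TTTTGCAA, whose reverse complement fits the motif, before one of its starts. Steap4 was the only one of the 6 with a STAT-type match (TTCCCGGAA, found in 7.02% of all windows) and with matches to the NF-kB consensus (3.90% of all windows), GGGATGCCCC and GGAAAACCCC. A match is a description of the letters in these windows and not evidence of a bound factor.

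The likeness of the serum amyloid genes bears on their values. The annotated transcripts of Saa1 and Saa2 were 93.9% identical over 609 aligned positions, against 62.2% for Saa1 and Saa3. Saa1 and Saa2 are neighbours on chromosome 7, at 46740497 to 46743181 and 46751833 to 46754313 (GRCm38.p6). How reads shared by the pair were assigned is not known, so the split between Saa1 and Saa2 is uncertain, and so is that between Orm1 and its neighbour Orm2 (91.0% identical).

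Both replicate 2 libraries stood apart from the other 6 in all 9 genes. FPKM, the unit used throughout, expresses the fragments of a gene per length of its transcript and per mapped fragment of the library. Both replicate 2 libraries were above the highest of the other 6 for 9 of 9 genes, and by at least 1.5 times for 9 of 9. Over the 11612 genes whose mean reached 1 FPKM, here called tested, 30.5% met the first condition and 3.22% the second. By the lower of the pair of replicate 2 values over the highest of the other 6, Saa3 ranked 1 of the 11612 genes, Hp 4, Steap4 5, Saa2 6, Lcn2 8, Saa1 20 and Cp 112. Saa1 and Saa2 entered this ranking only through replicate 2, with means of 0.305 and 0.371 FPKM over the other 6 libraries. Nothing is read from the ranks of these 2 genes. Orm1 and Slc39a4 were below a mean of 1 FPKM over the 8 libraries and have no rank. Such low genes included, 23.2% of the 18849 genes above 0 in any library met the first condition. For the second condition the share covers tested genes only, while the 9 of 9 includes Orm1 and Slc39a4. In bulk RNA, more cells of one kind and more RNA per cell cannot be told apart.

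**Figure D1:**
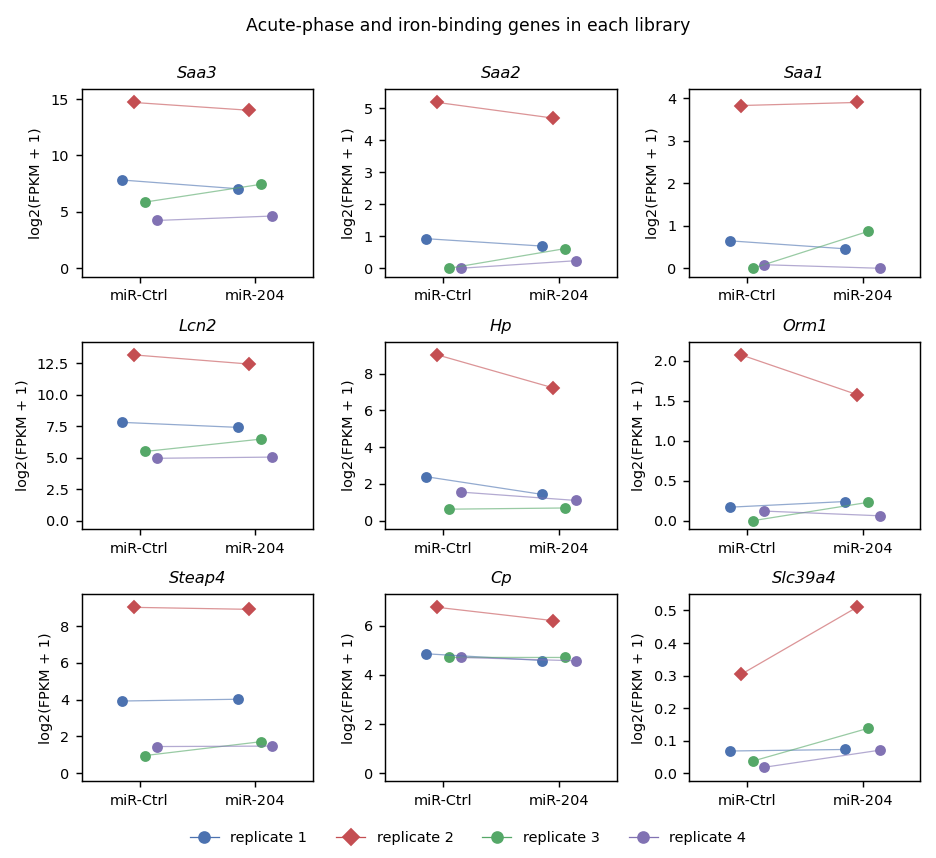
Expression of each of the 9 genes as log2(FPKM + 1) in the 4 miR-Ctrl and 4 miR-204 libraries; points are single libraries, lines join equal replicate numbers, and replicate 2 is drawn as diamonds. Both replicate 2 libraries lie above the other 6 in every panel.

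Among the serum amyloid genes, Saa3 had the highest level. In the miR-Ctrl libraries Saa3 (gene ID 20210) was at 225 FPKM in replicate 1, 26618 in replicate 2, 57.5 in replicate 3 and 17.9 in replicate 4. In the miR-204 libraries it was at 132, 16455, 173 and 23.8 FPKM. Replicate 2 was thus higher than the next library of its own group by 118-fold with miR-Ctrl and by 95.2-fold with miR-204, and the groups overlapped. Saa2 (20209) was at 0.899, 35.3, 0 and 0 FPKM with miR-Ctrl in replicates 1 to 4, and at 0.619, 24.9, 0.529 and 0.178 with miR-204. Saa1 (20208) was at 0.566, 13.3, 0 and 0.0595 FPKM with miR-Ctrl, and at 0.374, 14.0, 0.83 and 0 with miR-204. Outside replicate 2 both genes were below 1 FPKM in every library, so they reached the mean of 1 FPKM through replicate 2 alone.

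Lcn2 followed Saa3 closely. Lcn2 (16819) was at 222, 9134, 44.2 and 30.0 FPKM in replicates 1 to 4 of miR-Ctrl, and at 169, 5521, 87.9 and 32.1 in those of miR-204. By FPKM it ranked 2 among all genes of the miR-Ctrl library of replicate 2, after Saa3, and 5 in the miR-204 one, while its rank lay between 245 and 2005 in the other 6 libraries. Of the summed FPKM of replicate 2 the 9 genes together held 7.53% with miR-Ctrl and 4.70% with miR-204. Their share in the other 6 libraries was between 0.0185% and 0.115%. In both replicate 2 libraries most of it came from Saa3 and Lcn2, which held 5.42% and 1.86% of the sum with miR-Ctrl and 3.4% and 1.14% with miR-204.

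**Figure D2:**
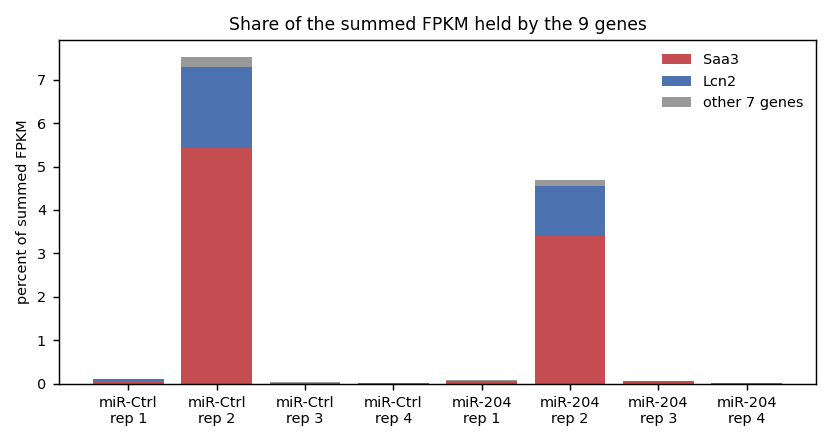
Percent of the summed FPKM of each library (vertical axis) held by Saa3, Lcn2 and the other 7 genes. The bars of replicate 2 reach 7.53% with miR-Ctrl and 4.70% with miR-204, and the other 6 libraries stay at or below 0.115%.

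The plasma proteins haptoglobin and orosomucoid showed the same standing at lower levels. Hp (15439) was at 4.26, 518, 0.545 and 1.94 FPKM in replicates 1 to 4 of miR-Ctrl, and at 1.71, 149, 0.615 and 1.14 in those of miR-204. Orm1 (18405) was at 0.124, 3.20, 0 and 0.0869 FPKM with miR-Ctrl and at 0.181, 1.98, 0.173 and 0.0435 with miR-204. If the smallest value of Orm1 stands for 1 fragment, its values corrected for relative depth were 59.07 and 37.78 fragments in the replicate 2 libraries and at most 4.03 in the other 6. Orm1 was thus close to the limit of detection outside replicate 2.

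The metal-handling genes differed widely in level. Steap4 (117167) was at 14.2, 521, 0.945 and 1.73 FPKM in replicates 1 to 4 of miR-Ctrl, and at 15.3, 483, 2.28 and 1.78 in those of miR-204. In this gene replicate 1 also stood above replicates 3 and 4, in both groups. Cp (12870) varied least of the 7 tested members, with 28.1, 107, 25.2 and 25.2 FPKM with miR-Ctrl and 23.0, 73.1, 25.2 and 22.8 with miR-204. Its replicate 2 was 3.81 times the next miR-Ctrl library and 2.90 times the next miR-204 library.

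Slc39a4 (72027) was barely detected, at 0.0483, 0.234, 0.0260 and 0.0126 FPKM with miR-Ctrl and 0.0517, 0.424, 0.10 and 0.0502 with miR-204. On the same reading as for Orm1, these values stand for 4, 14.99, 2 and 1 fragments with miR-Ctrl and 4, 28, 8 and 4 with miR-204. Its mean over the 8 libraries was 0.118 FPKM, the lowest of the 9 genes.

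By level per length, the order in both replicate 2 libraries was Saa3, then Lcn2, then Steap4 and Hp, then Cp, Saa2, Saa1, Orm1 and Slc39a4. Steap4 and Hp were at 521 and 518 FPKM with miR-Ctrl, but at 483 and 149 with miR-204. In the other 6 libraries the order was different, with Saa3 (17.9 to 225 FPKM), Lcn2 (30.0 to 222) and Cp (22.8 to 28.1) overlapping in range. Steap4 (0.945 to 15.3 FPKM) and Hp (0.545 to 4.26) overlapped as well, as did Saa1, Saa2 and Orm1 at 0 to 0.899. Among the 9 genes Cp alone had a range in which the highest of these 6 values was less than 1.5 times its lowest.

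Beside replicate 2, replicate 1 was next in the miR-Ctrl group, and less often with miR-204. In the miR-Ctrl group replicate 1 was above replicates 3 and 4 for 9 of 9 genes, and in the miR-204 group for 5 of 9. Over all tested genes, which leave out Orm1 and Slc39a4, these shares were 39.0% and 32.5%. For Saa1, Saa2, Orm1 and Slc39a4 this order rests on few fragments. With miR-204, Orm1 counted as above at 4.03 against 3.97 fragments in replicate 3. Saa3 went the other way there, with 132 FPKM in replicate 1 and 173 in replicate 3. The 21 pairs of the 7 tested genes correlated at Pearson r of 0.93 to 0.99 on log2(FPKM + 1) over the 8 libraries, a range set mostly by replicate 2. Over the 6 other libraries r was between 0.19 (Steap4 and Cp) and 0.94 (Saa2 and Lcn2), with a median of 0.54. In these 6 libraries Saa1 and Saa2 stood for at most 13.98 and 5.24 fragments, so r for pairs with them rests on values near 0. The points of these correlations share the 2 treatments and, in pairs, a replicate number.

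The question of the study was what miR-204 does to the transcripts of these cells. The ranges of the 2 groups overlapped for 9 of 9 genes, while 5.9% of all tested genes had groups without overlap. Read within equal replicate numbers, Saa3 with miR-204 was 0.584, 0.618, 3.01 and 1.33 times its miR-Ctrl partner in pairs 1 to 4, so lower in pairs 1 and 2 and higher in pairs 3 and 4. Lcn2 was at 0.759, 0.604, 1.99 and 1.07 times, with the same split. Steap4 was at 1.07, 0.927, 2.41 and 1.03 times. Hp was at 0.400, 0.288, 1.13 and 0.589 times, lower in 3 of 4 pairs. Cp was at 0.820, 0.685, 0.999 and 0.906 times, lower in 4 of 4 pairs. The ratio of Saa2 was 0.689 in pair 1 and 0.705 in pair 2, and that of Saa1 was 0.662 and 1.06. In pairs 3 and 4 one library of each pair was listed at 0 for both genes, so no ratio is given.

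**Figure D3:**
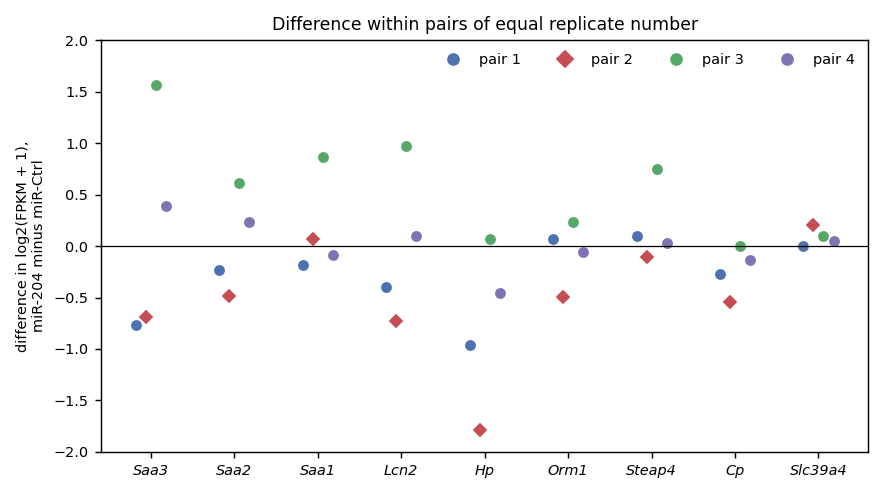
Difference in log2(FPKM + 1) between the miR-204 and the miR-Ctrl library of equal replicate number, for each of the 9 genes; each point is 1 pair. In pair 3 the points lie above 0 for 8 of 9 genes and in pair 2 below 0 for 7 of 9.

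By pair, 3 of 9 genes were higher with miR-204 in pair 1, 2 in pair 2, 8 in pair 3 and 5 in pair 4. Among all tested genes 64.2%, 61.8%, 73.9% and 70.2% were higher in these pairs. Of all tested genes 41.3% went in one direction in all 4 pairs, 7.44% lower and 33.9% higher. By FPKM, Cp was the only one of the 9 lower in all 4, and Slc39a4, at its few fragments, the only one higher in all 4. In pair 1 Slc39a4 stood for 4 fragments in both libraries. Its higher FPKM there, counted among the 3 of 9, is thus no difference in fragments.

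In the limma fit without the replicate number, 0 of 7 tested genes were higher or lower with miR-204 (0 at an unadjusted p under 0.05), against 0.207% of all genes called (0.0258% higher and 0.181% lower). With the replicate number as a block, 0 of 7 were called again (2 at an unadjusted p under 0.05, Hp and Cp), against 15.2% of all genes. The members were chosen with this contrast known, so nothing is read from these counts or from the p-values of Hp and Cp. The log2 fold changes on the log2(FPKM + 1) scale were 0.12 for Saa3, -0.013 for Lcn2, 0.19 for Steap4, 0.17 for Saa1 and 0.033 for Saa2. Their standard errors in the fit with the block were 0.38, 0.26, 0.14, 0.17 and 0.17. Hp was at -0.79 ± 0.27 and Cp at -0.24 ± 0.085 (SE, block). Without the block the standard error was 2.63 for Saa3 and 2.11 for Hp, since replicate 2 then counts as spread within the group. The median over the 7 genes was 0.033, and over all 11612 tested genes 0.064.

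These values moved with single libraries, and most with those of replicate 2. Without miR-Ctrl replicate 2 the unpaired log2 fold change was 2.31 for Saa3, 1.76 for Lcn2, 1.92 for Steap4 and 1.09 for Hp. Without miR-204 replicate 2 it was -1.78, -1.54, -1.44 and -2.32. With both replicate 2 libraries left out it was 0.40, 0.23, 0.29 and -0.45. In the fit with the block and without replicate 2, neither Hp nor Cp was at an unadjusted p under 0.05. Other libraries moved the values as well: Saa3 was at 1.34 without miR-204 replicate 4 and at -1.18 without miR-Ctrl replicate 4, and Lcn2 at 0.92 and -0.98. Hp was at -1.71 without miR-Ctrl replicate 3. With a pseudocount of 0.1 in place of 1, Saa2 was at 0.79 and Saa1 at 0.53.

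Seed matches of miR-204-5p were searched in the 9 genes. In the longest 3′ UTR that GENCODE M21 annotates, 3 of the 9 genes had a match of at least 7 bases, in each case the 7-base form ending opposite the first base of the miRNA (AAGGGAA), and 24.1% of 10701 tested genes with an annotated 3′ UTR had a match of 7 or 8 bases. The matches lay at chr5:7980711-7980717 in Steap4 (agaatagcAAGGGAAccctcgct) and at chr3:20006572-20006578 in Cp (aaagggtgAAGGGAAtatgcaga), both on the plus strand of mm10. Both lie in transcripts that the deposited table lists. Saa3 had 2 matches, ctgtcatcAAGGGAAatatagcc and aaaggaggAAGGGAAgcgatctc on the minus strand, at chr7:46714251-46714257 and chr7:46713276-46713282, but only in a longer annotated transcript and not in the one listed in the deposited table. Saa1, Saa2, Lcn2, Hp, Orm1 and Slc39a4 had no match of 6 or more bases.

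Related genes were taken from 7 lists written from textbook knowledge, of 130 genes in all. Of these genes, 90 were tested. Of these 90, both replicate 2 libraries were above the other 6 in 62 (68.9%, against 30.5% of all tested genes) and below the other 6 in 2 (against 8.98%). The lists were drawn up with earlier results of these data known, so a raised share could be expected from their choice. These counts are a description of 2 libraries and not a test.

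**Figure D4:**
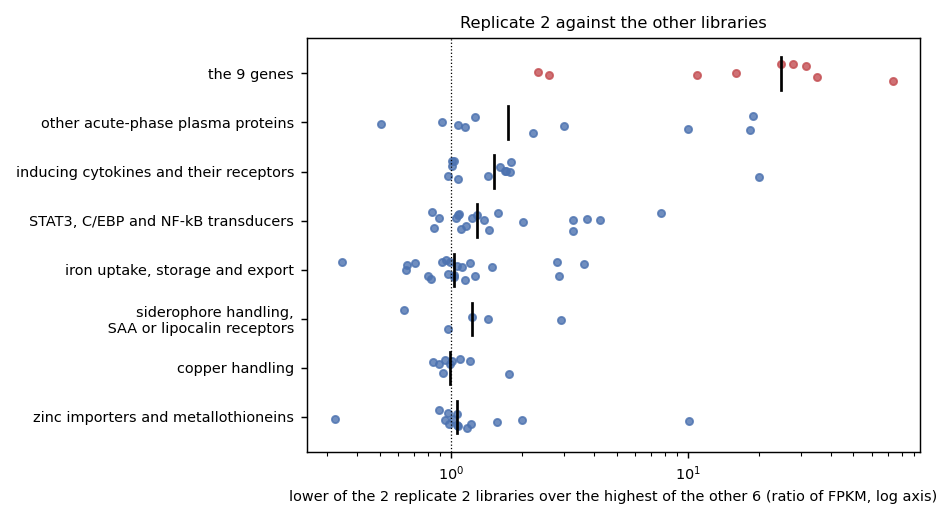
For the 9 genes and for the tested genes of 7 related lists, the lower of the 2 replicate 2 FPKM values divided by the highest of the other 6, on a log axis; each point is a gene, bars are medians, and the dotted line marks 1. All 9 genes lie to the right of 1, and the list medians lie between 0.987 and 1.74.

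Among 10 tested genes of other acute-phase proteins, 8 had both replicate 2 libraries above the other 6. The genes named in this and the next 2 paragraphs for their replicate 2 levels were chosen after their values were seen. Lbp, which encodes the protein that hands bacterial endotoxin to CD14, was at 371 and 286 FPKM in replicate 2 of miR-Ctrl and miR-204, against 3.48 to 15.2 elsewhere. C3, the central complement component, was at 394 and 350 against 1.57 to 19.1 FPKM, and Cfb, complement factor B, at 214 and 254 against 2.32 to 21.4. Saa4, a further serum amyloid gene, was at 1.87 and 0.620 FPKM in replicate 2 and at most 0.0433 elsewhere. Near the limit of detection, Orm2 was at 0.645 and 0.288 FPKM in replicate 2 against at most 0.164, and Lrg1 at 0.436 and 0.132 against at most 0.0678. Crp, Apcs, Orm3, Hamp and Hamp2 were listed at 0 in all 8 libraries. Il1rn, which encodes the interleukin-1 receptor antagonist, did not share the pattern, with 3.54 FPKM in replicate 1 and 1.92 in replicate 2 of miR-Ctrl. Nor did the more abundant Serpina3n, at 301 and 138 FPKM in replicate 2 but at 150 in replicate 1 of miR-204.

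Of the inducing cytokines, Il6 was at 6.24 and 4.07 FPKM in replicate 2 and at most 0.205 in the other 6 libraries, and Tnf, near the limit of detection, was at 0.157 and 0.105 in replicate 2 and at most 0.0360 in the others. Il11 went the other way, at 0.540 and 0.592 FPKM in replicate 2 against 0.720 to 0.977 in the others. Lif was above by a small margin with miR-Ctrl, at 1.61 and 2.30 against 0.849 to 1.59. Il1a, Il1b, Osm and Il17a did not exceed 0.0863 in any library. Receptor transcripts were present throughout. Il6st, the shared signalling chain of the interleukin-6 family, was at 160 FPKM in both replicate 2 libraries and at 46.5 to 88.8 elsewhere. Of 19 tested transducers, 16 had both replicate 2 libraries above the others. Cebpd, a C/EBP factor of the acute phase, was at 86.8 and 64.1 against 3.78 to 15.1 FPKM. Cebpb was at 118 and 103 against 22.4 to 31.7. Nfkbiz, an inducible partner of NF-kB that acts on the Lcn2 promoter, was at 50.4 and 43.5 against 1.99 to 5.63. Stat3 itself was at 50.9 and 43.5 against 27.5 to 39.4.

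Iron genes were mixed, with 11 of 21 tested genes above in both replicate 2 libraries and 2 below. Fth1, the heavy chain of ferritin, was at 7149 and 6449 FPKM against 1244 to 2299, while Ftl1, the light chain, was at 2976 and 3489 against 2404 to 3238. Slc11a2, the importer of ferrous iron, was at 72 and 81.0 against 11.7 to 25.1 FPKM, and Trf, transferrin, at 35.6 and 18.7 against 1.62 to 5.15. Cybrd1, an iron reductase, was lower, at 6.18 and 7.27 against 14.7 to 17.8 FPKM. Steap1, a relative of Steap4, was lower by a small margin, at 61.5 and 57.5 against 62.0 to 81.4. Ltf, which encodes lactoferrin, was listed at 0 in all libraries. Of the zinc importers, Slc39a8 was at 33.2 and 16.3 FPKM against 0.410 to 1.61, and Slc39a14 at 99.0 and 77.3 against 36.6 to 49.4.

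After miR-204, 0 of the 90 genes were higher and 1 was lower in limma without the block (1 higher and 1 lower at an unadjusted p under 0.05). The lower gene was the zinc transporter Slc39a11, from 24.5 ± 3.01 to 9.80 ± 1.34 FPKM (mean ± SD, n = 4 each), a difference of -1.24 ± 0.12 (SE) on the log2 scale with a limma adjusted p of 0.0142, lower in 4 of 4 pairs. The call was lost without miR-Ctrl replicate 1 or 4, or without miR-204 replicate 1, 3 or 4 (limma adjusted p from 0.0531 to 0.0926). Its log2 fold change stayed between -1.32 and -1.18 when each library was left out in turn. In the fit with the block 14 were higher and 2 lower, against 12.4% and 2.83% of all genes, and with libraries centred on their median as well, 5 were higher and 2 lower, against 4.99% and 4.32% of all genes. The second lower gene was Slc39a10, a zinc importer (-0.19, limma adjusted p = 0.0375 with the block, lower in 4 of 4 pairs). Of all tested genes 7.44% were lower in all 4 pairs.

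By list, with the block, 1 of 10 other acute-phase genes rose (Agt, angiotensinogen, 0.52, limma adjusted p = 0.0201) and 0 fell. For cytokines and receptors it was 1 of 12 (Tnfrsf1b, a receptor of tumour necrosis factor, 0.44, limma adjusted p = 0.0321). Of the transducers 5 of 19 rose and 0 fell (the fifth was Nfkbia). The named ones were Nfkbie (0.45, limma adjusted p = 0.0171), Relb (0.25, 0.0163), Tnfaip3 (0.25, 0.0420) and Nfkb2 (0.20, 0.0266), which are subunits, inhibitors or feedback regulators of NF-kB. Of 21 iron genes 4 rose and 0 fell: Hmox1, which breaks down haem (0.26, limma adjusted p = 0.0450), Slc11a2 (0.24, 0.0212), Hfe (0.22, 0.0156) and Ftl1 (0.21, 0.0377). Of 5 siderophore and receptor genes 3 rose: Tlr2, a sensor of bacterial lipoproteins that serum amyloid A can also activate (0.50, limma adjusted p = 0.0171), Tlr4 (0.27, 0.0461) and Slc22a17, a lipocalin 2 receptor (0.24, 0.0222). All of these were higher in 4 of 4 pairs, as were 33.9% of all tested genes. The fit with the block compares within pairs, so this is no separate evidence. With libraries centred on their median, Tnfrsf1b, Tnfaip3, Nfkb2, Hmox1, Slc11a2, Ftl1, Tlr4 and Slc22a17 no longer passed (limma adjusted p from 0.0524 for Tnfrsf1b to 0.116 for Ftl1), nor did Nfkbia. Of 9 copper genes 0 were called in either direction, with Sod1 at 0.10 and Atox1, a copper chaperone, at 0.066.

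**Figure D5:**
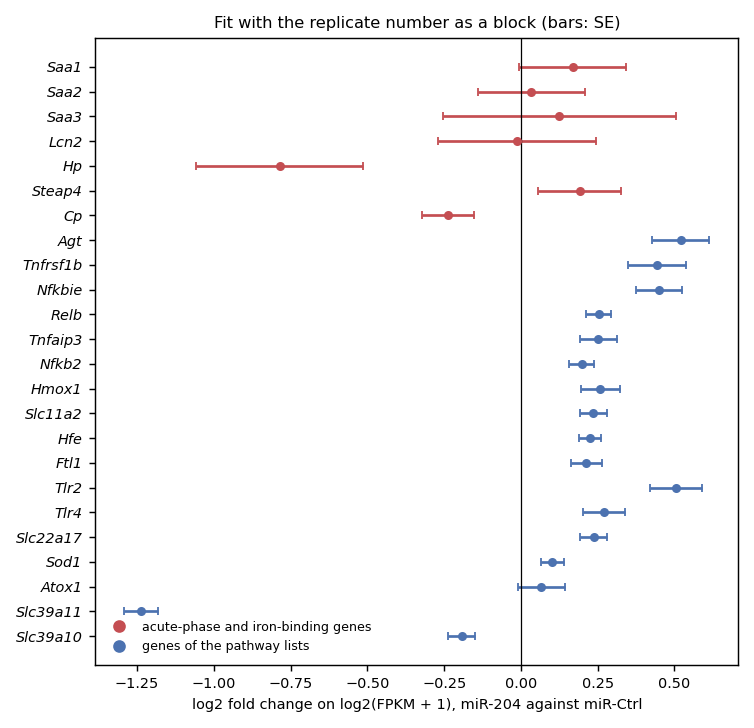
Log2 fold change of miR-204 against miR-Ctrl on the log2(FPKM + 1) scale, with standard errors, from the fit with the replicate number as a block, for the 7 tested acute-phase and iron-binding genes and for the named genes of the related lists. The bars of Saa1, Saa2, Saa3 and Lcn2 cross 0, that of Steap4 lies above it, those of Hp and Cp lie below it, and Slc39a11 lies farthest left at -1.24. Where a standard error bar lies is not a test.

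List medians of the log2 fold change were 0.054 for other acute-phase genes, 0.13 for cytokines and receptors, 0.063 for transducers and 0.038 for iron genes, beside 0.064 over all tested genes. For siderophore and receptor genes the median was 0.24, for copper genes 0.071 and for zinc importers and metallothioneins 0.0077.

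The transcripts most like the 9 genes in pattern were found by Pearson correlation of log2(FPKM + 1), over the 8 libraries, with the mean standardised profile of the 7 tested genes. They were Bckdhb (r = 0.998), Vnn3 (0.997), Vnn1 (0.996), Sap30 (0.995), Ctps (0.995) and Sod2 (0.994). The profile is set mostly by replicate 2, known when the members were chosen, so a high r mainly marks genes higher there. It does not measure the size of the difference. The lower replicate 2 value over the highest of the other 6 was 2.07 for Bckdhb, 43.6 for Vnn3 and 23.7 for Vnn1. It was 1.49 for Sap30, 1.80 for Ctps and 5.25 for Sod2. Vnn1, a pantetheine-degrading enzyme, was at 340 and 281 FPKM in replicate 2 and at 4.28 to 11.9 elsewhere, and Sod2, the mitochondrial superoxide dismutase, at 124 and 110 against 15.2 to 20.9. Among the 11605 other tested genes 286 reached an r of 0.95, which is 2.46%.

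Markers of other cell types moved only in part with these genes. The 9 chondrocyte markers summed to 11112 and 11104 FPKM in replicate 2, against 22658 to 37573 in the other libraries, so they were lower where the 9 genes were high but remained abundant. Hepatocyte markers summed to at most 0.505 FPKM in any library, with Ttr, Apoa2 and F2 at 0, so the defining transcripts of liver cells were at or near 0. The 9 neutrophil markers found summed to 18.9 and 17.1 FPKM in replicate 2 and to at most 0.949 elsewhere. It came from Camp (15.4 and 15.7 FPKM) and S100a8 (3.45 and 1.33), while S100a9 and Ltf were at 0 and the other 5 did not exceed 0.0746, Ngp, Mpo and Elane among them. Macrophage markers (8 found) summed to 12.9 and 16.5 FPKM in replicate 2 and to 3.26 to 16.4 elsewhere. Endothelial markers (6) summed to at most 0.484 in any library. Adipocyte markers (7) summed to 41.8 and 34.6 FPKM in replicate 2 against 11.1 to 26.1. Of these 7, only Fabp4 was above the other 6 libraries in both (31.6 and 19.5 against 0.395 to 7.09). Lpl was not (10.0 and 15.1 against 10.7 to 18.5), and the other 5 stayed below 1 FPKM in all libraries. Fibroblast and synovial markers (7) summed to 2830 and 2518 FPKM in replicate 2 and to 1283 to 3115 in the others. Of these, Dcn (1270 and 1043 against 289 to 807 FPKM) and Pdpn (75.6 and 57.9 against 11.0 to 48.6) were above the other 6 libraries in both. So were 3 of the 8 macrophage markers, Aif1 (0.368 and 0.402 FPKM), Csf1r (0.147 and 0.193) and Ptprc (0.0256 and 0.0309), at low levels. The other macrophage markers were not. Among them were those that made up most of the sum, Lyz2 (9.51 and 10.8 against 2.55 to 11.1 FPKM) and Cd68 (2.22 and 4.74 against 0.545 to 4.75). By group, these sums overlapped between miR-Ctrl and miR-204 in every list. Relative depth was 0.772 and 0.798 in the replicate 2 libraries and 0.929 to 1 in the others, with miR-Ctrl replicate 1 as reference. The part of cell makeup or depth in the level of the 9 genes was not tested.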

How the data were processed

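RNA of 8 libraries (4 miR-Ctrl, 4 miR-204) was sequenced after poly(A) selection with a stranded kit, per the labels' protocols. The authors deposited 1 FPKM value per gene and library. As tools, Cufflinks 2.2.1 and TopHat (no version) stand in the submitters' processing notes, with mm10 as build. Read totals are not given, and relative depth came from steps between low FPKM values. Of the symbols, 27 had become dates and 131 were missing, and 156 were restored through the gene ID.

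The 11612 genes whose mean reached 1 FPKM entered a fit on log2(FPKM + 1) by limma 3.58.1 (R 4.3.3, trended prior), a scale that understates changes of low genes, with Benjamini-Hochberg adjustment over all genes and a two-sided threshold of 0.05. Of the 9 genes, 7 passed this filter. The main fit had no block. Replicate numbers paired the samples, since deviations from the group means correlated at r = 0.44, 0.82, 0.76 and 0.62 between equal numbers, across genes. This pairing comes from the data and not from the labels. The labels do not call the replicates separate cultures or animals, so p-values reflect only how these libraries vary, possibly for technical reasons.

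In a test on simulated data (11612 genes, miR-204 against miR-Ctrl) the unpaired fit recovered 46% of 1.5-fold and 82% of 2-fold changes, and the blocked fit 80% and 97%, with 0 and 8 unchanged genes called. The values were simulated from the blocked model itself, with its replicate shifts, its residual spread and independent normal noise. The lead of the blocked fit was thus built in, and its behaviour on the real data was not tested. The members and gene lists were chosen with earlier results of these data known. Named genes were all 9 members, up to 4 passing genes of each list (or the 2 of highest mean) and the 6 genes most like the members. Adgre1 and Ly6g were not found by symbol. Promoters and miRNA came from RefSeq tables (GRCm38.p6), and 3′ UTRs from GENCODE M21 (mm10).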

Additional observations from a re-analysis of the deposited data

Results flagged for a closer look

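Within a group of 4 libraries, a value was examined further when its gap to the nearest other value, divided by the range of the group on the log2(FPKM + 1) scale, exceeded Dixon's 95% critical value, which chance alone gives in about 1 group in 20. Among 52 combinations of gene and group, 8 such values were replicate 2 libraries of the acute-phase and iron-binding genes. These genes were chosen with their replicate 2 levels known, so the chance rate does not apply to them, and the values are given as a description. With miR-Ctrl they were Saa1 at 13.3 FPKM, Orm1 at 3.20 and Cp at 107. With miR-204 they were Saa2 at 24.9 FPKM, Hp at 149, Orm1 at 1.98, Cp at 73.1 and Slc39a4 at 0.424. The remaining value, outside that choice, was Hmox1 in miR-Ctrl replicate 1, at 158 FPKM. On the FPKM scale, all 18 of the 18 combinations of an acute-phase or iron-binding gene with a group passed the critical value. Which of these genes are listed thus depends on the scale.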

How the results depend on the processing

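The counts of called acute-phase and iron-binding genes over the settings are not read as stability, since these genes were chosen with the contrast known and their unpaired standard errors reached 2.63. The same holds for the standing of replicate 2, which was above the other 6 libraries for 9 of 9 genes at 1.5 times, without the filter and with centred libraries. Over all tested genes, 3 were higher and 21 lower. With the replicate block the counts were 1436 and 329, with the replicate block and libraries centred on their median 579 and 502, with centred libraries alone 8 and 55, and without the filter on low values 0 (1123 at an unadjusted p under 0.05 by limma) and 9. With the replicate block and without both libraries of replicate 2 they were 2781 and 522. Leaving out 1 library at a time gave 0 to 4 higher genes (486 to 1503 at an unadjusted p under 0.05) and 1 to 16 lower genes. Of the 90 related genes, 0 were higher and 1 lower; with the replicate block 14 and 2, with centring as well 5 and 2, and without replicate 2 in the blocked fit 30 and 2. The 1 lower gene, Slc39a11, was lost without miR-Ctrl replicate 1 or 4 or without miR-204 replicate 1, 3 or 4, so leaving out 1 library gave 0 to 1; its log2 fold change stayed between -1.32 and -1.18, and the cause was not tested. Leaving out libraries, centring or other settings moved the log2 fold change of Saa3 between -1.78 and 2.31, of Lcn2 between -1.54 and 1.76, of Hp between -2.32 and 1.09 and of Cp between -0.64 and 0.26, and that of Saa1, Saa2 and Steap4 also took both signs. Depth limits Orm1 and Slc39a4 most, and outside replicate 2 also Saa1 and Saa2.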
